A study of Homo sapiens with 3 samples.

Results

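The promoter labelled EDEM2 was 1 of 13 promoters edited in place by Cas9 in HEK293T cells, a human embryonic kidney line, and read by CRISPR-Cap, which sequences capped RNA 5′ ends. All lines of the deposited list that carry this target name were taken. They comprised 275 ends on the minus strand of chromosome 20, of 131949 ends in the whole list, and 222 of the 275 carried a deletion. The cells were a transfected population and not a clone, the 1 guide RNA of the target was delivered with Cas9 protein in repeated transfections, and unedited ends came from the same transfected cells. The list pools 2 libraries without separating them, so no error given here is a replicate error. Every interval is a 95% interval for counting and, for matched values, for the spread between deletions. If the lines are PCR reads and not single molecules, these intervals are too narrow.

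The label and the annotation differ. Among unedited ends the most used position, here called the main start, was chr20:35278122 on hg38, the exact RefSeq start of MMP24OS, a gene on the opposite strand to the metalloproteinase gene MMP24. The same start is that of the RefSeq readthrough gene MMP24-AS1-EDEM2, which runs from 35115364 to 35278122 and joins this promoter to EDEM2. EDEM2 itself, which encodes a mannosidase-like protein of the endoplasmic reticulum that acts in the mannose trimming of misfolded glycoproteins, starts in RefSeq at 35147336, 130786 bases downstream. The 5′ ends therefore report the MMP24OS and readthrough start and not the promoter of EDEM2 alone. In GENCODE release 29 the most deleted base, 35278109, lay in the first exon of 5 MMP24OS transcripts, and in 2 of these, both protein-coding, it was 5′ untranslated sequence.

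At most human promoters transcription starts on a purine with a pyrimidine before it. A smaller class, known from genes of ribosomal proteins and translation factors, starts at a cytosine inside a run of pyrimidines and is called the TCT or polypyrimidine initiator. RNA of this class can carry a terminal oligopyrimidine tract, through which translation responds to nutrient signalling. CRISPR-Cap reads each RNA from its 5′ end through the edited site, so the start and the allele are seen on the same molecule, and use of starts can be compared between alleles of 1 promoter.

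The region around the starts is shown because the start bases turned out to differ between edited and unedited ends. It is chr20:35278112-35278141 (RefSeq, GRCh38.p14, minus strand, read 5′ to 3′), with the start bases described below in capitals, and the last capital C is the main start.
start region: gcAcAggGtcGagtCCCTTCTttccgctcc
An uninterrupted tract of 12 pyrimidines spans 35278117 to 35278128 and holds the main start.

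The edited alleles are shown from the main start onwards, since the results turn on which bases each lost. Each line gives the reference over chr20:35278093-35278122 (minus strand, main start first), and capitals mark the deleted bases as placed in the deposited list.
deletion 35278107-35278114: ctttccgcTCCAACGCacggagggtgaggt
deletion 35278107-35278112: ctttccgctcCAACGCacggagggtgaggt
deletion 35278106-35278110: ctttccgctccaACGCAcggagggtgaggt
deletion 35278104-35278107: ctttccgctccaacgCACGgagggtgaggt
deletion 35278105-35278112: ctttccgctcCAACGCACggagggtgaggt
deletion 35278109-35278109: ctttccgctccaaCgcacggagggtgaggt
deletion 35278109-35278111: ctttccgctccAACgcacggagggtgaggt

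Deletions made up 80.7% of the ends (222 of 275, Wilson interval 75.7 to 84.95%). Counting as edited the deletions seen at least 2 times gave 69.8%, and counting those of at least 3 bases gave 72.4%. The share ranked 6 of 13 targets, counted from the highest. Genomic DNA was not analysed here, so the efficiency of editing and the RNA output of edited alleles cannot be told apart in this share.

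The edited ends fell into 47 distinct deletions, of which 30 were seen as 1 end each. The 7 deletions printed above, each with at least 9 ends, made up 74.3% of the edited ends. Deletion 35278107-35278114, of 8 bases, was the most frequent with 59 ends (26.6%, 21.2 to 32.7%). It was followed by 35278107-35278112 with 28 ends (12.6%, 8.87 to 17.6%), 35278106-35278110 with 22 and 35278104-35278107 with 18. Deletion 35278105-35278112 had 15 ends, the loss of the C at 35278109 had 14, and 35278109-35278111 had 9. The next 5 deletions had 3 or 4 ends each. Small losses thus dominated: 72.1% of the edited ends lacked 4 to 8 bases, the median was 7.5 bases, and 13.5% lacked 10 or more. The longest deletion removed 52 bases, and 5 deletions with 6 ends in all reached the main start.

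Losses centred 13 bases downstream of the main start. Base 35278109 was missing from 83.8% of the edited ends. Of the NGG triplets in the promoter window, the CGG at 35278103 to 35278105 places a Cas9 cut between 35278108 and 35278109, and the deletions of 213 of the 222 edited ends (95.9%) span or touch that point. The next best triplet, a TGG on the opposite strand, reached 82.9%. Possible shifts of a deletion within a repeat are counted in. The sequence of the guide was not used here, and the triplet was matched after the deletions were seen. In 23 of the 47 deletions, with 80.6% of the edited ends, the deleted bases could be moved to a higher coordinate within a short repeat without changing the allele, and in 1 to a lower one.

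**Figure D1:**
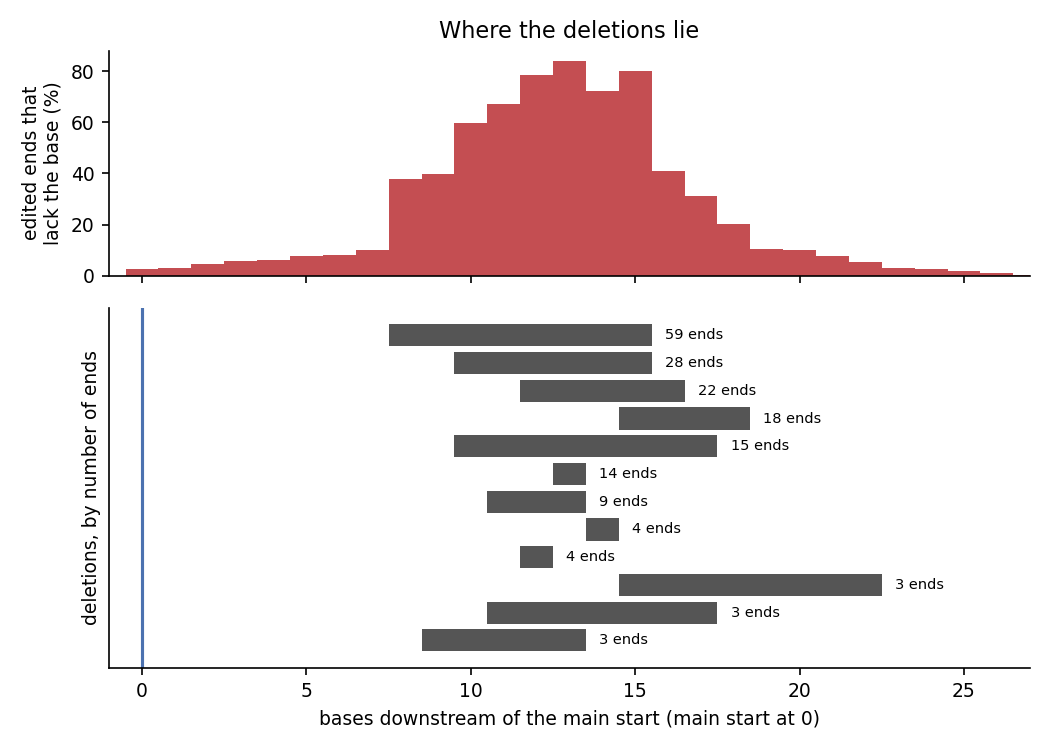
Where the deletions lie, in bases downstream of the main start (blue line at 0). The upper panel gives the percentage of the 222 edited ends that lack each base, with its peak of 83.8% at 13 bases. The lower panel draws the 12 deletions with the most ends as bars from first to last deleted base, with the 59-end deletion on top reaching closest to the main start among the 7 with at least 9 ends.

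The unedited ends seen here lay almost wholly within the pyrimidine tract, and the start base was a C in 42 of 53 ends (79.2%, 66.5 to 88.0%). The main start held 31 of 53 unedited ends (58.5%, 45.1 to 70.7%), and its flanking letters, a pyrimidine before the C and TTT after it, are those of a TCT initiator. Position 35278125, a C 3 bases upstream and also a GENCODE start of MMP24OS, held 9 (16.98%, 9.20 to 29.2%). Position 35278121 held 4 unedited ends and position 35278123 held 3. In all, 50 of 53 unedited ends (94.3%, 84.6 to 98.1%) lay in the tract, and no unedited end lay downstream of 35278118. RNA that starts within or downstream of the edited site cannot be read through it, so such starts would not be seen. GENCODE also places MMP24OS starts there, at 35278101, 35278103 and 35278104, and their use was not measured. The 3 unedited ends outside the tract were single ends at 35278131, 35278134 and 35278144.

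Purine starts were the exception on unedited RNA. A purine after a pyrimidine was the start in 2 of 53 unedited ends (3.77%, 1.04 to 12.8%). The same share could be read from RefSeq promoter windows at 6 other targets. The lowest of these was ECI1, an enzyme gene of fatty acid oxidation, at 20.05% (17.5 to 22.9%), an interval that does not overlap that of the EDEM2-labelled promoter. Among 35116 RefSeq promoter windows, 61.5% have a purine after a pyrimidine at the annotated start, 14.7% have a C there, and 0.806% have CTTT after a pyrimidine, as MMP24OS does.

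On edited RNA the starts spread upstream and out of the tract. The main start fell from 31 of 53 unedited ends to 42 of 222 edited ends (18.9%, 14.3 to 24.6%), a difference of −39.6 percentage points (Newcombe interval −52.7 to −25.03). The tract as a whole went from 94.3% to 123 of 222 edited ends (55.4%, 48.8 to 61.8%), a difference of −38.9 points (−46.5 to −27.3). The share of ends at least 10 bases farther upstream rose from 2 of 53 (3.77%) to 81 of 222 (36.5%), a difference of 32.7 points (21.9 to 39.8). Purine-after-pyrimidine starts rose from 3.77% to 33.8% (27.9 to 40.2%), a difference of 30.01 points (19.3 to 37.02). None of these intervals for a difference included 0.

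The leading start on edited RNA was position 35278139, an A after a C, 17 bases upstream of the main start. It held 55 of 222 edited ends (24.8%, 19.6 to 30.9%) and 0 of 53 unedited ends, which allows a share of up to 5.66%. These 55 ends came from 26 of the 47 deletions, so the start was not the mark of a single allele. Among the 30 deletions seen as 1 end each, 14 ends (46.7%, 30.2 to 63.9%) were at this position. The main start came next with its 42 ends.

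Within the tract, edited ends were also placed differently. Position 35278127, a C 5 bases upstream of the main start, held 21 edited ends (9.46%, 6.27 to 14.03%) from 7 deletions and 0 unedited ends. Position 35278125 held 30 edited ends (13.5%, 9.63 to 18.6%), against 16.98% of unedited ends, and the interval of this difference spanned 0 (−3.47 points, −16.3 to 5.85). Positions 35278124 and 35278126 held 7 and 8 edited ends and no unedited end, while 35278121 held 8 and 35278123 held 5. Intervals of the difference spanned 0 at each of these 4 positions.

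Between the tract and position 35278139 there were smaller starts. Position 35278131, a G after a C and a GENCODE start of MMP24OS, held 14 edited ends (6.31%) and 1 unedited end. Position 35278134 held 10 edited ends and 1 unedited end, and position 35278137, an A after a C, held 5 edited ends and none that was unedited. Each of these 3 differences had an interval that spanned 0. Farther upstream, 5 edited ends (2.25%) lay 40 or more bases from the main start, the farthest at 35278215, 93 bases upstream. At this depth the share cannot be told apart from the 0 of 53 unedited ends.

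**Figure D2:**
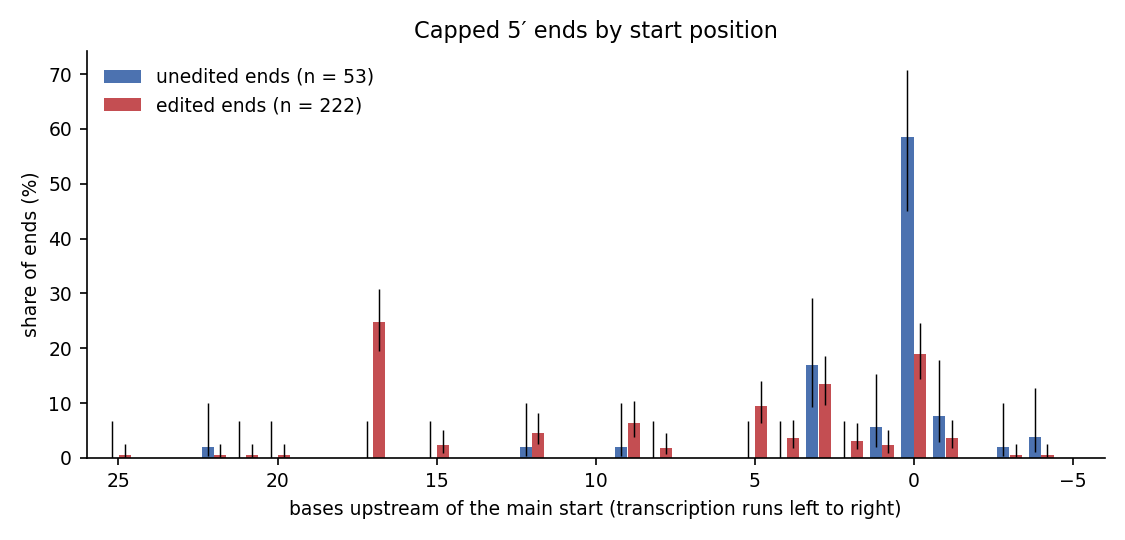
Share of capped 5′ ends (%) at each position from 25 bases upstream to 5 bases downstream of the main start, for unedited ends (blue, n = 53) and edited ends (red, n = 222), with Wilson 95% intervals as lines. The blue bar at 0 reaches 58.5% and the red bar 18.9%, while the red bar at 17 bases reaches 24.8% with no blue bar beside it. Edited ends farther upstream are not drawn.

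At other targets, too, starts close to a deletion were seen less than expected on that allele. The number of bases from the start base to the last base before the deletion is called the retained bases. No edited end of the EDEM2-labelled promoter had fewer than 8 retained bases, and 3 had exactly 8. At 9 other targets with at least 20 expected ends, edited ends with 8 retained bases reached a median of 0.229 of the number expected from unedited ends, scaled to starts with 20 or more retained bases (lowest 0, highest 0.696). The median was 0.0145 for 0 to 7 retained bases and 0.299 for 9 to 11 (0.0304 to 0.500). It was 0.322 for 12 to 15 (0.119 to 1.20) and 0.580 for 16 to 19 (0.241 to 1.69). In both of these last windows 8 of the 9 targets were below 1, and LETMD1 was above it. On the same scale the EDEM2-labelled promoter had 39 ends at 9 to 11 retained bases, against 434 expected. It had 43 against 323 at 12 to 15, and 36 against 84.8 at 16 to 19. The expected numbers are unsteady here, because their scale rests on the few unedited ends far upstream. How much of the fall at the main start comes with the rarity of starts near a deletion was not tested. The next comparisons leave out starts with fewer than a set number of retained bases, 8 unless stated. They do not correct for the rarity of starts above that number.

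Matching compared each deletion only with unedited ends at least 8 bases upstream of it. Only positions with at least 10 ends were used, edited and unedited counted together. Positions 35278127 and 35278139 pass this filter on edited ends alone, while 35278123, with 3 unedited ends, is left out. The main-start share was then 63.3% on unedited and 23.3% on edited ends, a difference of −39.9 points (−63.6 to −16.3, 180 edited ends over 41 deletions). Without the filter on positions the difference was −37.2 points (−58.04 to −16.4, 222 edited ends). Deletions that leave too few bases at the main start stay in the matched average with 0% on both kinds of ends, which pulls the difference towards 0. Asking for at least 9 retained bases at every start adds the most frequent deletion to these, and the difference was −20.1 points (−36.5 to −3.65). Asking for at least 12 gave −16.3 points (−31.6 to −0.918). A separate comparison, chosen after these values were seen, used only deletions that keep at least a set number of bases at the main start. Among deletions that keep at least 8 bases there, the difference was −43.8 points (−68.6 to −19.02, 164 edited ends). These still include the most frequent deletion, which keeps exactly 8 and has 1 of its 59 ends at the main start. Among deletions that keep at least 9 the main start held 67.4% of unedited and 35.7% of edited ends, a difference of −31.7 points (−51.2 to −12.2, 112 edited ends). Among those that keep at least 12 the shares were 67.4% and 30.5%, a difference of −36.9 points (−54.5 to −19.3, 59 edited ends). Each of these intervals lay below 0. Bases kept were counted with deletions as placed in the list. Deletion 35278106-35278110, with 22 ends, keeps 12 bases there as placed but 10 at its highest coordinate.

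The matched ends moved upstream by 5.89 bases on average (2.94 to 8.83), from a mean of 1.71 to one of 7.60 bases upstream of the main start. Ends 10 or more bases upstream went from 6.18% to 36.1%, a rise of 29.9 points (12.9 to 47.01). Without the filter on positions this rise was 27.4 points (10.2 to 44.5). The matched tract share went from 89.3% to 56.1%, a difference of −33.2 points (−53.2 to −13.1). With at least 12 retained bases at every start, where many deletions leave little or none of the tract to compare, the intervals of the upstream and tract differences spanned 0 (20.9 points, −8.63 to 50.4, and −10.6 points, −28.4 to 7.16). That of the mean shift, 3.98 bases (2.42 to 5.53), did not. Among deletions that keep at least 12 bases at the main start, the upstream difference was 18.2 points (3.24 to 33.1) and the tract difference −21.1 points (−35.3 to −6.85). With at least 20 retained bases the shift was 4.41 bases (3.30 to 5.53) on 52 edited ends, in which neither the main start nor the tract could be measured.

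The use of starts at 8 to 19 retained bases, relative to starts at 20 or more, was lower on edited than on unedited ends, with a Mantel-Haenszel odds ratio over deletions of 0.154 (0.0980 to 0.242). The same few unedited ends enter every deletion here, so this interval is too narrow.

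Looking only upstream of the main start removes it from both kinds of ends. Of 15 unedited ends there, 9 (60.0%, 35.7 to 80.2%) were at 35278125 and 0 at 35278139, which allows up to 20.0%. Of 170 edited ends there, 30 (17.6%, 12.7 to 24.1%) were at 35278125 and 55 (32.4%, 25.8 to 39.7%) at 35278139. Without the most frequent deletion the last share was 31 of 112 (27.7%, 20.2 to 36.6%). The order of these starts therefore differed between edited and unedited ends also when the main start was set aside. Both positions were picked from these same ends for their high counts, which by itself favours such a difference. Position 35278125 lies closer to the deletions than 35278139, so this comparison does not remove the rarity of starts near a deletion. How much of the difference comes with that rarity was not tested.

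Deletions were grouped, as placed in the list, by how close they came to the main start. The share at 35278139 exceeded that of the tract only where 8 or fewer bases were kept. Where 12 or more bases were kept, 18 of 73 ends were at the main start (24.7%, 16.2 to 35.6%), 71.2% in the tract and 13.7% (7.61 to 23.4%) at 35278139. Where 9 to 11 were kept, 22 of 65 ends were at the main start (33.8%, 23.5 to 45.96%), 76.9% in the tract and 12.3% at 35278139. Of these 22 ends, 15 were of 1 allele, deletion 35278107-35278112. Both main-start intervals overlapped each other, and only the first lay wholly below that of unedited ends. Where exactly 8 were kept, 2 of 62 ends were at the main start (3.23%, 0.889 to 11.02%), 32.3% in the tract and 38.7% (27.6 to 51.2%) at 35278139. Of these 62 ends, 59 were of deletion 35278107-35278114, which keeps 5 bases if placed at its highest coordinate. Where fewer than 8 were kept, 0 of 22 ends were at the main start, 1 was in the tract and 13 (59.1%, 38.7 to 76.7%) were at 35278139. No edited end had fewer than 8 retained bases, so the 0 at the main start adds nothing to that. Position 35278139 lies 17 bases farther upstream and so keeps more bases on each allele. How much of these differences comes with the rarity of starts near a deletion was not tested.

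**Figure D3:**
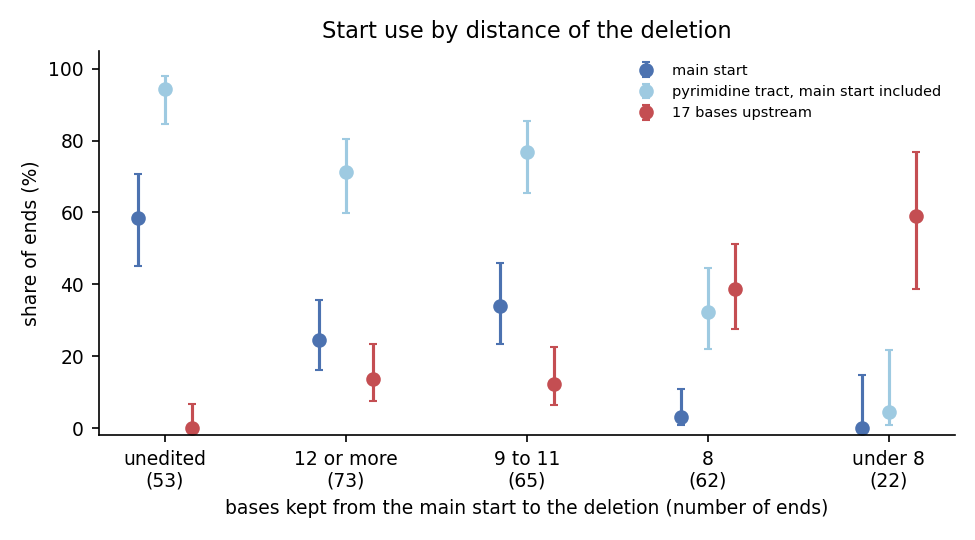
Share of ends (%) at the main start, in the pyrimidine tract (main start included) and 17 bases upstream, for unedited ends and for edited ends grouped by the bases kept from the main start to the deletion, with Wilson 95% intervals. The tract is at 94.3% on unedited ends and at 32.3% where 8 bases are kept, and the position 17 bases upstream is at 0% and 38.7%. Of the 62 ends where 8 are kept, 59 are of the most frequent deletion.

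The 7 deletions with at least 9 ends were compared in 21 pairs, with intervals not adjusted for their number. The interval of the difference excluded 0 in 7 pairs at the main start, in 7 pairs for the tract and in 7 pairs at 35278139. All 7 pairs at the main start held deletion 35278107-35278114 or deletion 35278107-35278112. On the most frequent deletion, 35278107-35278114, 1 of 59 ends was at the main start (1.69%), which keeps 8 bases there, 18 were in the tract (30.5%, 20.3 to 43.1%) and 24 were at 35278139 (40.7%, 29.1 to 53.4%). A further 9 were at 35278125, 7 at 35278131 and 6 at 35278127. The 2 ends farthest upstream, at 35278213 and 35278215, were also on this allele. Its ends lay 13.97 bases upstream of the main start on average, against 1.09 for all unedited ends.

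Deletion 35278107-35278112, which as placed in the list spares the T and C at 35278114 and 35278113, stayed closest to unedited RNA. It can be moved 1 base higher without changing the allele, so which C it spares is not fixed. It had 15 of 28 ends at the main start (53.6%, 35.8 to 70.5%), 25 in the tract (89.3%, 72.8 to 96.3%) and 1 at 35278139. Against unedited ends at the same positions the main start differed by −8.43 points (−29.9 to 13.4), an interval that does not show the allele to be unchanged. The 8-base and this 6-base deletion share their downstream edge, and the 8-base minus the 6-base share was −58.8 points in the tract (−71.2 to −38.01) and 37.1 points at 35278139 (18.8 to 50.2).

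Deletion 35278105-35278112 shares its upstream edge with 35278107-35278112, so every start keeps the same number of bases on both. The 2 further lost bases, as placed in the list the A and C at 35278106 and 35278105, went with 2 of 15 ends at the main start (13.3%, 3.74 to 37.9%). The 6-base allele had 40.2 points more there (9.94 to 59.7). In the tract the alleles had 89.3% and 73.3%, with an interval of the difference that spanned 0 (15.95 points, −6.86 to 42.2), and none of the 15 ends was at 35278139.

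Among deletions that, as placed in the list, keep 12 to 15 bases at the main start were 35278106-35278110 and 35278104-35278107. At their highest coordinates they keep 10 and 12. Deletion 35278106-35278110 had 3 of 22 ends at the main start (13.6%, 4.75 to 33.3%) and 16 in the tract (72.7%), 6 of them at 35278127. Against unedited ends its main start was 44.9 points lower (−59.99 to −21.03). Deletion 35278104-35278107 had 6 of 18 at the main start (33.3%, 16.3 to 56.3%), 7 at 35278125, 16 in the tract (88.9%) and 0 at 35278139, and its main-start difference from unedited ends had an interval that spanned 0 (−25.2 points, −46.2 to 1.39). Compared directly, the first minus the second was −19.7 points at the main start (−44.3 to 6.36), and the intervals in the tract and at 35278139 also spanned 0.

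Deletions of 1 base held 22 ends, of which 6 were at the main start (27.3%, 13.2 to 48.2%), 14 in the tract (63.6%) and 6 at 35278139. The allele without C at 35278109 had 2 of 14 ends at the main start (14.3%, 4.01 to 39.9%), 8 in the tract (57.1%, 32.6 to 78.6%) and 4 at 35278139 (28.6%, 11.7 to 54.6%). Its main start was 44.2 points below that of unedited ends (−60.2 to −15.3) and its tract share 37.2 points below (−62.03 to −13.6). The other 1-base deletions had 4 ends each, 2 of them at the main start on either allele. The other 2 ends of the loss of 35278108 were at 35278139, and those of the loss of 35278110 were in the tract. Deletion 35278109-35278111, of 3 bases, had 1 of 9 ends at the main start, 8 in the tract, 4 of these at 35278127, and 1 at 35278139.

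**Figure D4:**
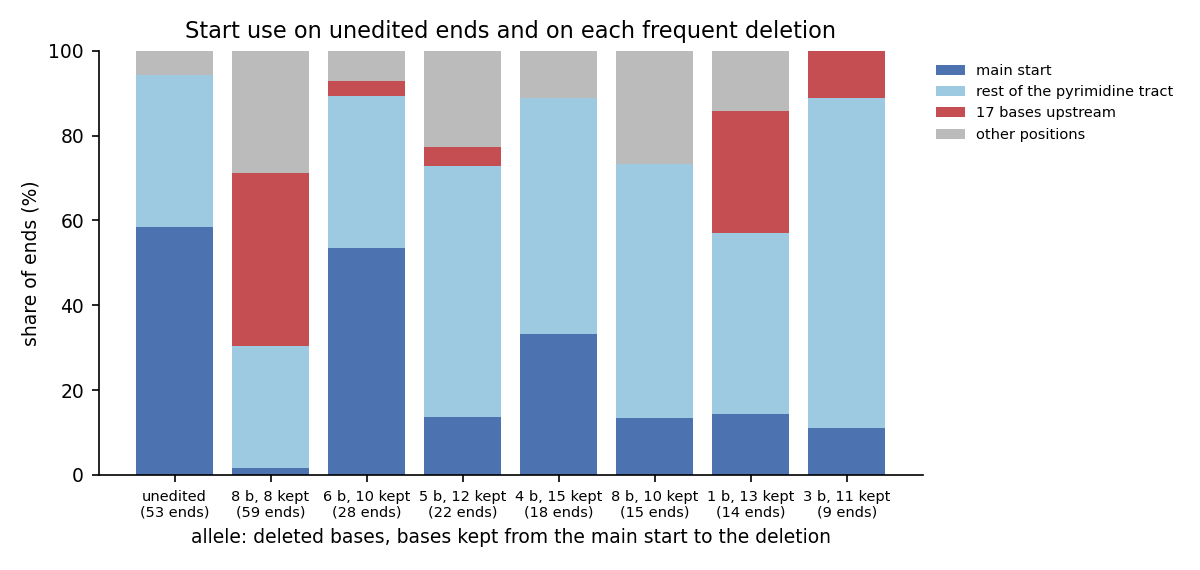
Share of ends (%) at the main start, in the rest of the pyrimidine tract, 17 bases upstream and elsewhere, for unedited ends and for the 7 deletions with at least 9 ends, each named by its deleted bases and the bases kept from the main start to the deletion. The 6-base deletion keeps 53.6% at the main start, next to 58.5% on unedited ends, and the 8-base deletion that keeps 8 bases has 1.69%.

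By length, deletions of 1 to 3 bases had 7 of 32 ends at the main start (21.9%, 11.02 to 38.8%) and 22 in the tract (68.8%). Those of 4 to 7 bases had 27 of 79 at the main start (34.2%, 24.7 to 45.2%) and 78.5% in the tract. Of these 27 ends, 15 were of 1 allele, deletion 35278107-35278112. Deletions of 8 or 9 bases, mostly the most frequent allele, had 5 of 81 at the main start (6.17%, 2.67 to 13.6%). Deletions of 10 or more bases had 3 of 30 at the main start (10.0%), 7 in the tract (23.3%) and 16 at 35278139 (53.3%, 36.1 to 69.8%). Longer deletions also come closer to the main start, and length and distance cannot be told apart in these groups.

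The promoter sequence upstream of the starts is shown because it holds the starts from 35278134 upwards and the motifs nearest to them. It is chr20:35278133-35278252 (RefSeq, GRCh38.p14, minus strand, 5′ to 3′), with capitals for GGGCGG, the GC box bound by SP factors, and CCAAT, the NF-Y box, on either strand.
upstream promoter: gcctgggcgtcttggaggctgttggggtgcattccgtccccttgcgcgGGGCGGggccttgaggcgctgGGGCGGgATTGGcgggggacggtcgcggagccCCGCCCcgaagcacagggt
GGGCGG or its reverse complement occurs 4 times in the RefSeq window of MMP24OS, from 250 bases before to 50 after the annotated start, and 44.95% of the 35116 promoter windows hold it at least once. The nearest match lies 24 to 29 bases upstream of the main start, as the reverse complement. CCAAT occurs 1 time, as its reverse complement 50 to 54 bases upstream, and 34.6% of windows hold it.

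Downstream of the main start, GGTGAG, letters like those of a 5′ splice site, occurs at 35278095 to 35278100, and 20.6% of windows hold it on either strand. Deletions of 12 edited ends reach it, so most of the edited ends keep it whole. TTCTTT, searched after the main start was seen, occurs 2 times, at the main start and far upstream, and 22.1% of windows hold it. Neither TATAAA of the TATA box nor GGAAG of ETS factors was found on either strand of this window. The same held for AAGATGG of YY1, for TGACGT of CREB factors and for ACTACA of ZNF143. TGCGCA, the full NRF1 palindrome and GGTAAG, another splice-site-like run, were also not found. A match describes letters only.

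Set beside the other 12 targets, the EDEM2-labelled promoter had the lowest matched main-start difference and the highest matched rise 10 or more bases upstream. Both intervals are wide and overlapped those of some other targets, so neither was shown to be particular to it. Its mean upstream shift of 5.89 bases ranked 5 of 13, below NDUFV3 at 8.35, C1orf63 at 7.86, IRF1 at 7.73 and C19orf43 at 6.93. The 3 targets whose most deleted base lies at the most similar distance from the main start, 14 bases against 13, were IRF1, TMED9 and LETMD1. IRF1, an interferon-regulated transcription factor, had −23.4 points at its main start (−37.2 to −9.53), TMED9, a carrier protein of early secretion, −21.3 (−31.6 to −11.03), and LETMD1 −15.8 (−35.02 to 3.43). Upstream by 10 or more bases, IRF1 rose by 23.4 points (9.53 to 37.2) and TMED9 by 4.49 (2.67 to 6.32), an interval wholly below that of the EDEM2-labelled promoter. LETMD1 had −12.5 points there (−30.4 to 5.43). Deletions at the EDEM2-labelled promoter had a median of 7.5 bases, against 14 at IRF1, 9 at LETMD1 and 2 at TMED9.

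**Figure D5:**
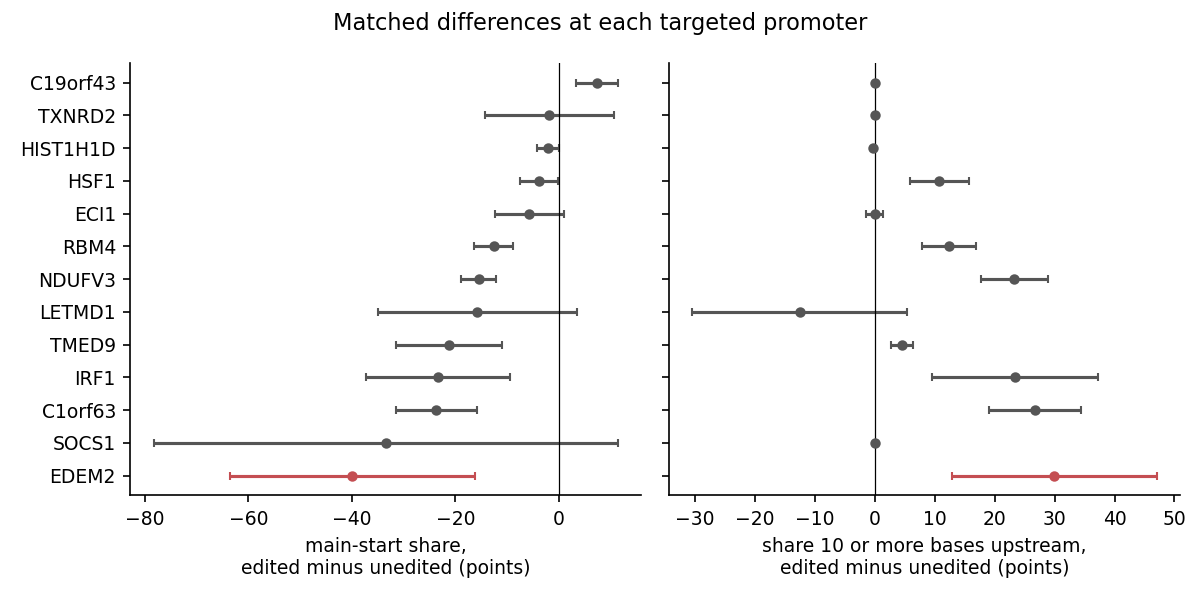
Matched difference between edited and unedited ends at each of the 13 targets, in percentage points, for the main-start share (left) and the share 10 or more bases upstream of the main start (right), with 95% intervals. The EDEM2-labelled promoter (red) is at −39.9 and 29.9 points.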

How the data were processed

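Each line of the CRISPR-Cap list the authors deposited is 1 capped 5′ end with its class (edited or unedited), start position, deletion edges, deletion length and target name, per the file headers. STAR and hg38 are named per the submitters' processing notes; for versions, settings and any collapsing of reads by their random bases, the sources used here state nothing. Depth was 275 ends (222 edited, 53 unedited). Positions were taken as counted from 0 and printed from 1, which puts the main start on the RefSeq start. The start bases given here rest on this reading, and counting from 1 was not run. Deletions were used as placed by the authors.

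Shares carry Wilson intervals and their differences Newcombe intervals. Matched differences averaged over deletions by their edited ends, with a linearised interval clustered by deletion, checked on data simulated from the RBM4-labelled target. The simulated data held more unedited and more edited ends than this target, so the check does not cover the depth here. No p-value was computed, because the pooled list has no replicates. Positions with at least 5% of either kind of ends, or 5 ends, and the 10 deletions with the most ends (12 with ties) were described by rule. The members, motif list and tests were chosen with earlier results of these data known, and the pyrimidine tract after its values were seen. The reporter (STAP-seq) counts, deposited as counts per base, were not used. Computation used Python 3.11.15, pandas 2.3.3 and scipy 1.17.1.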

Additional observations from a re-analysis of the deposited data

How the results depend on the processing

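Depth limits every value: 53 unedited ends leave wide intervals, and a start with no unedited end may hold up to 5.66% of them. No paired analysis was possible because the list does not separate the 2 libraries, and for the same reason leaving out a replicate was not run. With at least 12 retained bases the matched main-start difference was −16.3 points and the tract difference −10.6 points; with at least 20 the rise far upstream was 12.5 points (−17.2 to 42.2), and the main start and the tract could not be measured. These settings leave fewer starts to compare, and deletions on which the main start cannot be seen stay in the average at 0 on both sides. Restricted to deletions that keep at least 8, 9 or 12 bases at the main start, added after seeing the data, the main-start difference was −43.8, −31.7 and −36.9 points and the tract difference −33.9, −20.7 and −21.1. The edited share was 69.8% when only deletions with at least 2 ends counted and 72.4% with those of at least 3 bases. The other settings kept the direction and stayed within the main interval for the main start (13 settings, 5 of them added after seeing the data), the tract (13), the far-upstream share (14), the upstream shift (15), the odds ratio (2) and the difference over all ends (2). Among these, the main-start difference was smallest at −19.7 points (at least 10 retained bases), and was −19.97 with movable deletions at their highest coordinate, where the most frequent deletion keeps 5 bases at the main start, and −27.7 without the most frequent deletion.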
